A study of Mus musculus with 16 samples.

Results

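Gene expression after 96 h of ER-Pax7 activation was compared with that in the same cells before induction, over all genes of the count table. The comparison used 6 of the 16 libraries of the series, 3 at 96 h and 3 at 0 h, and tested 15188 of 24063 genes. All 6 came from AtT-20, an established mouse line derived from a pituitary corticotrope tumour, in which pro-opiomelanocortin (Pomc) is made. The cells expressed 3x flag-ER-Pax7, in which Pax7 is joined to the ligand-binding part of an oestrogen receptor. The 0 h cells were untreated, and the 96 h cells had received the oestrogen receptor ligand 4-hydroxytamoxifen for 4 days. Libraries of the same experiment at 12 and 24 h (3 each) and of AtT-20 cells with constitutive Pax7 or a flag-Neo control (2 each) were used only for reference. The labels name no vehicle and no compound-treated cells without ER-Pax7, so the compound, days in culture and Pax7 activity cannot be told apart. They also do not say whether the line was a clone or a pool, or whether replicates were grown apart, so the spread behind each p-value may be technical.

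Pax7 is a paired-box and homeodomain transcription factor that can open closed chromatin, and in the intermediate lobe of the pituitary it gives melanotropes their identity. Corticotropes and melanotropes both make Pomc but cleave it differently: corticotropes use the convertase Pcsk1 to release corticotropin, and melanotropes add Pcsk2 to release melanocyte-stimulating hormone. A fusion to the oestrogen receptor's ligand-binding part is made all the time but acts in the nucleus only once its ligand is bound, so its activity can be switched on at a chosen time.

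Values are exon reads per gene, scaled by the authors to a common library total and divided here by a TMM factor (called scaled reads below). The libraries held 61374367 to 88697883 counted read mates at 0 h and 67992691 to 80669426 at 96 h. Reads on the ribosomal precursor Rn45s made up 0.787% to 0.922% at 0 h and 0.843% to 1.26% at 96 h. Differences are on the log2(scaled reads + 1) scale, which understates the change of low genes, and were called at a limma adjusted p under 0.05 over all genes tested. In these bulk libraries, fewer cells with a transcript and less transcript per cell cannot be told apart.

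The genes named in the construct were read first, where reads of an endogenous gene and of the construct cannot be told apart. Pax7 stood at 1773, 1718 and 1686 scaled reads at 0 h and 1911, 1905 and 1864 at 96 h, so all 96 h libraries lay above all 0 h libraries. The rise was small (log2 0.13, SE 0.04; limma, adjusted p = 0.0128), and its call was lost without 0 h replicate 3 (log2 0.12, adjusted p = 0.0540). Esr1, the gene of oestrogen receptor alpha, read 1129.5, 1162 and 1109.7 scaled reads at 0 h and 1213, 1267 and 1244 at 96 h, with a difference of 0.13 that was not called (SE 0.052; limma, adjusted p = 0.0575). That call was made without TMM factors (limma, adjusted p = 0.0486), with only these 6 libraries (0.00649) and with DESeq2 (0.0499).

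At 96 h, 5124 of 15188 tested genes differed from 0 h by that limit (33.7%), of which 2482 were higher (16.3% of all tested) and 2642 lower (17.4%). At an unadjusted p under 0.05 there were 6485 (42.7%), and the 3 values of each time did not overlap in 6962 genes (45.8%). Most called differences were small: the median called gene differed 1.19-fold. At least 2-fold differences were called in 241 genes, 102 higher (0.672% of tested genes) and 139 lower (0.915%). These counts depend on the scale: with a pseudocount of 5 they were 51 and 56, with the stricter filter 67 and 92 and with a pseudocount of 0.25 139 and 209, and 219 were lower with edgeR and 212 with DESeq2. Of the 241, 237 were called in each of 6 fits that left out 1 library, against 3309 of all 5124. The median difference over all tested genes was 0.00. In the authors' deposited table for these times, 2784 genes had an FDR under 0.05, 1288 higher and 1496 lower at 96 h, and 2757 of them were called here in the same direction.

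**Figure D1:**
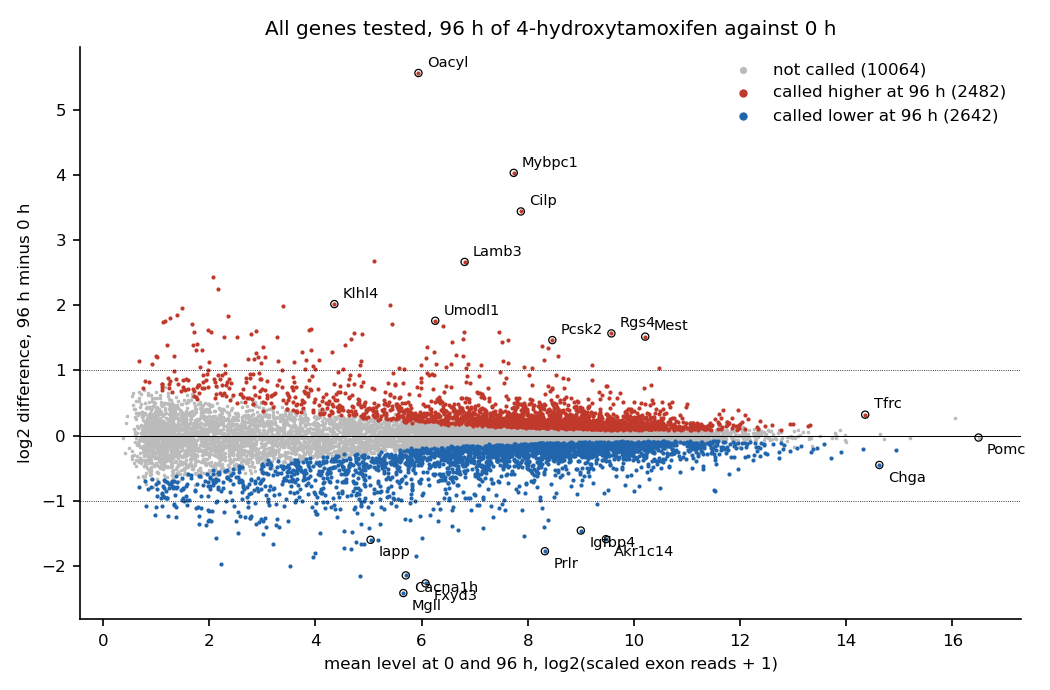
Each point is 1 of the 15188 genes tested. The horizontal axis is its mean level at 0 and 96 h, log2(scaled exon reads + 1), and the vertical axis the log2 difference of 96 h from 0 h, with red and blue for genes called higher (2482) and lower (2642) and dotted lines at 2-fold. Most called genes lie inside the dotted lines, Oacyl and Mybpc1 lie highest of those labelled, and Pomc, the labelled gene farthest to the right, lies near 0.

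Melanotrope markers are given first. Oacyl, an acyltransferase family gene enriched in melanotropes (mm10 chromosome 18, 65698268 to 65751537), had 2.01, 1.87 and 0.893 scaled reads at 0 h and 124, 116 and 118 at 96 h. No 96 h value came near the 0 h values, and the difference was 47.4-fold on the log2(value + 1) scale (log2 5.57, SE 0.14; limma, adjusted p = 6.79e-17). Pcsk2, the melanotrope convertase (mm10 chromosome 2, 143546133 to 143816282), went from 189.7, 191 and 179 scaled reads to 542, 521 and 489, again without overlap (log2 1.46, SE 0.045; limma, adjusted p = 1.59e-15). Antisense transcripts lie opposite Pcsk2, and since counting is not stated to use strand, reads of the shared stretch could come from either. Esm1, a secreted proteoglycan, was called higher at a level of few reads, 1.77, 1.16 and 0.652 scaled reads at 0 h and 2.70, 3.17 and 2.79 at 96 h (log2 0.85). That call was lost without 0 h replicate 3 (log2 0.66, adjusted p = 0.0946) or without 96 h replicate 2 (0.80, 0.0630). Megf11, a transmembrane gene of the EGF-repeat family, overlapped between times at 2011, 1966 and 1824 scaled reads at 0 h and 2100.2, 2084 and 1977 at 96 h and was not called (log2 0.09; limma, adjusted p = 0.138). Drd2, the dopamine receptor through which melanotropes are held in check, was listed at 0 in all 6 libraries. So 3 of 4 tested melanotrope markers rose and none fell, where 16.3% of all tested genes rose and 17.4% fell. Earlier work on Pax7, possibly in this line, made these markers known, and their direction is therefore no independent evidence.

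Corticotrope genes did not fall together. Pomc read 95750.0, 90256 and 93435 scaled reads at 0 h and 95247, 89942 and 88325 at 96 h, with overlapping groups and no call (log2 -0.03, SE 0.053; limma, adjusted p = 0.695). It had been lower at 24 h, with 74601, 73058 and 75825 (log2 -0.32 from 0 h; limma, adjusted p = 2.14e-04), and 96 h was higher than 24 h (log2 0.29, adjusted p = 9.15e-04). Tbx19, the T-box factor of Pomc cells, rose in all 3 libraries, from 2963, 2894 and 2782 to 3536, 3501 and 3416 (log2 0.28, SE 0.039; limma, adjusted p = 1.23e-05). Neurod1, a basic helix-loop-helix factor of corticotropes, rose by 0.30 on the log2 scale and Pcsk1 by 0.14 (limma, adjusted p = 1.08e-04 and 0.00260). The homeobox gene Pitx1 was also called higher, at 0.25, a call lost without 96 h replicate 1 (0.16, adjusted p = 0.0600). The other called markers, all receptors, went the other way. Crhr1, through which hypothalamic corticotropin-releasing hormone acts, had 21.7, 16.4 and 20.9 scaled reads at 0 h and 13.9, 13.6 and 11.9 at 96 h (log2 -0.54; limma, adjusted p = 0.00579). The glucocorticoid receptor Nr3c1 fell from 1883, 2047 and 2019 to 1597, 1656 and 1712 (log2 -0.26, SE 0.038), and Lifr, the receptor for leukaemia inhibitory factor, read -0.26 (limma, adjusted p = 2.12e-05 and 4.54e-05). In all, 4 of 8 tested corticotrope markers rose and 3 fell, with a median of 0.05, and Avpr1b, the vasopressin receptor, was at 0.98 scaled reads or less in each library.

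Of the genes of other pituitary lineages, Prl, Tshb, Fshb and Gnrhr were listed at 0 in all 6 libraries. Of 4 tested genes of those lineages, 2 fell, the zinc finger gene Gata2 (log2 -0.59, from 123, 133 and 121 to 83.5, 88.2 and 78.6 scaled reads) and the gonadotrope nuclear receptor Nr5a1 (log2 -1.08, from 6.28, 6.19 and 6.94 to 2.80, 2.01 and 2.88 scaled reads; limma, adjusted p = 0.00143). Among 8 tested progenitor and developmental factors, 4 fell and 1 rose, or 2 rose without 96 h replicate 1. Sox9, a progenitor factor, rose from 14.9, 19.9 and 16.6 to 37.3, 39.1 and 40.3, with no overlap (log2 1.15, SE 0.11; limma, adjusted p = 1.12e-07). The Notch effector Hes1 (log2 -0.67) and the homeobox gene Six6 (-0.60) were among the falls (limma, adjusted p = 4.61e-06 and 1.35e-09), as was Sox2 (-0.36), which was named after its value was seen.

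The 15 highest folds were those of a mixed group. They were taken from called genes with at least 10 scaled reads on average, no clone name and no overlap between times. Their calls and the separation of their times were therefore fixed by the rule. After Oacyl came Mybpc1, the myosin-binding protein C of slow muscle (mm10 chromosome 10, 88518279 to 88605152), with 26.1, 20.0 and 25.1 scaled reads at 0 h and 390.0, 401 and 413 at 96 h. The 96 h libraries stood far above the 0 h ones (16.4-fold; log2 4.03, SE 0.082; limma, adjusted p = 1.36e-18). Cilp, a matrix protein of cartilage (mm10 chromosome 9, 65265180 to 65280605), went from 38.1, 40.1 and 37.2 to 443, 418 and 423 (10.9-fold; log2 3.44, SE 0.053). Lamb3, the beta chain of the basement membrane laminin-332 and of epithelia, rose from 29.6 ± 1.37 (mean ± SD, n = 3) to 193 ± 8.34 (log2 2.67, SE 0.08). Neither gene's times overlapped, as the rule required.

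Next were Klhl4, a kelch family gene (log2 2.02), Umodl1 (1.76), the actin regulator Wipf3 (1.71) and Zfp750, a zinc finger factor of epidermal differentiation (1.69). The peptide endothelin-3 (Edn3, 1.64), the folate enzyme Aldh1l1 (1.62), the LIM domain gene Lmcd1 (1.60) and the orphan receptor Gprc5b (1.59) followed. The Rac GTPase-activating gene Arhgap24 (1.58), Rgs4 (1.57) and the zinc finger gene Zfp92 (1.56) closed the 15, whose limma adjusted p-values ran from 1.28e-20 to 6.08e-08. Rgs4, which speeds the shut-off of G proteins, was the most read of them, with 369, 391 and 393 scaled reads at 0 h and 1148, 1124 and 1151 at 96 h, and its groups were well apart. Just outside the 15, clone names left aside, stood the imprinted gene Mest (log2 1.52) and Pcsk2 (1.46), and between them Kit, the stem cell factor receptor (1.49; named after its value was seen).

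The 15 lowest folds, picked by the same rule, held several membrane proteins and enzymes. Mgll, the lipase that breaks down monoglycerides and the endocannabinoid 2-arachidonoylglycerol (mm10 chromosome 6, 88724412 to 88828360), had 85.7, 80.4 and 85.5 scaled reads at 0 h and 16.3, 17.7 and 11.3 at 96 h. All 96 h values were below all 0 h values (5.35-fold; log2 -2.42, SE 0.14; limma, adjusted p = 4.63e-11). Prlr, the prolactin receptor (mm10 chromosome 15, 10177238 to 10337020), went from 466, 507 and 513 to 139.5, 150.3 and 142 (log2 -1.78, SE 0.063), and Cacna1h, a T-type calcium channel, from 86.9, 86.1 and 78.9 to 21.1, 18.3 and 15.5 (log2 -2.15, SE 0.10). Fxyd3, a regulator of the sodium pump (log2 -2.27), and Lgi4, a secreted leucine-rich protein (-2.16), overlap at their ends on opposite strands (mm10 chromosome 7, 31070535 to 31076697, and chromosome 7, 31059935 to 31070935), so part of their reads cannot be told apart.

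The other falls were those of the chemokine Cxcl14 (log2 -2.01), the fatty acid carrier Fabp2 (-1.87), sarcolipin (Sln, -1.85), which holds back the calcium pump, the procollagen protease Adamts2 (-1.80) and urate oxidase (Uox, -1.74). The potassium channel Kcnj1 (-1.72), the lymphocyte adhesion gene Cd2 (-1.67), the proteoglycan Spock1 (-1.67), the serotonin enzyme Tph1 (-1.63) and Rd3 (-1.61) completed them. The limma adjusted p-values of these 15 lay between 1.50e-14 and 1.80e-07, and like the 15 rises each was called whichever of the 6 libraries was left out.

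**Figure D2:**
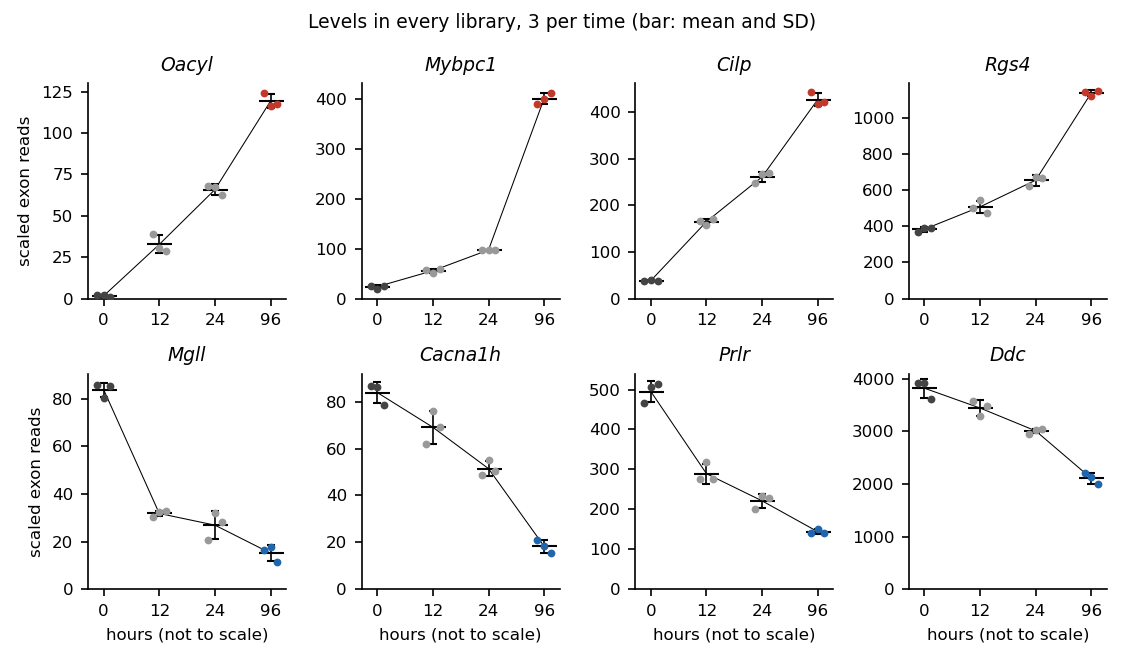
Scaled exon reads (vertical axes, starting at 0) of 8 genes at 0, 12, 24 and 96 h of 4-hydroxytamoxifen (horizontal axes, not to scale). Points are the 3 libraries of each time, bars the mean and SD. In all 8 genes the 96 h libraries lie clear of the 0 h libraries, above them for Oacyl, Mybpc1, Cilp and Rgs4 and below them for Mgll, Cacna1h, Prlr and Ddc.

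Bases upstream of a gene that rose most, a gene that fell most and a sterol gene are shown. The homeodomain of Pax7 binds TAAT, and a control element is known for some sterol genes, which are described below. The 250 bases before the annotated start are from RefSeq (GRCm38.p6, the mm10 assembly), 5′ to 3′ on the strand of the gene, with capitals for TAAT on either strand in the first pair and for the sterol regulatory element TCACNCCAC in the third.
Mybpc1, chr10:88605153-88605402, minus strand: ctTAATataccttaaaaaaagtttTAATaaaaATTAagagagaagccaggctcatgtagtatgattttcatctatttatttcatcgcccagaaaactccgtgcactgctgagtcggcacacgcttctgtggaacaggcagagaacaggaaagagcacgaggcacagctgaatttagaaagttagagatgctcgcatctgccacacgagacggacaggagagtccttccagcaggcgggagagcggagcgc
Mgll, chr6:88724162-88724411, plus strand: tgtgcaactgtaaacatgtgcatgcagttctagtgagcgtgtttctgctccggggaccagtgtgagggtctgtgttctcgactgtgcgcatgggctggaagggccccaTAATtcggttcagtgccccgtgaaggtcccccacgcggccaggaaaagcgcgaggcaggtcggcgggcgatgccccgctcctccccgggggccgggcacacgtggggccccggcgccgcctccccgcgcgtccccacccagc
Hmgcs1, chr13:119690101-119690350, plus strand: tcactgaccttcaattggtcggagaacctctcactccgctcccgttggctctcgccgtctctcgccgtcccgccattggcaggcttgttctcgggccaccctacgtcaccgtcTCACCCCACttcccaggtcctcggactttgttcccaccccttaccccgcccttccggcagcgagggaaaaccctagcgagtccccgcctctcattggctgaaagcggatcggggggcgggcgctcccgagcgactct
The Mybpc1 window held 3 matches of TAAT, starting 248, 226 and 218 bases before the start, and the Mgll window 1, at 142 bases. A window of this length held TAAT on either strand in 38.8% of 10331 promoters, so such matches are common and say nothing here about binding. The Hmgcs1 window held 1 match of TCACNCCAC, at 137 bases, a motif found in 1.01% of the promoters. Of 15 sterol genes with a matched promoter, only 1, Hmgcs1, held this motif. The window shown is therefore not typical of the list, and its match says nothing here about binding. Promoters were matched for 68.0% of tested genes, under the 80% set as a minimum, so groups of genes were not compared by motif.

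Large changes in reads, among called genes without overlap, came mostly from moderate folds in genes of many reads. Tfrc, the transferrin receptor that takes up iron, rose from 18166, 19532 and 18331 to 23325, 23440.0 and 23112 (log2 0.32, SE 0.045; limma, adjusted p = 1.36e-05), and Mest from 622, 617 and 601 to 1700.5, 1805 and 1773. Carboxypeptidase E (Cpe, log2 0.16), which trims peptide hormones, the membrane protein Serinc3 (0.38) and the dynein heavy chain Dync1h1 (0.18) completed the 5 largest rises in reads. The granule protein chromogranin A (Chga) fell from 29571, 29154 and 28787 to 21688, 20978 and 21281 (log2 -0.45, SE 0.04; limma, adjusted p = 2.31e-08). The amyloid precursor App (log2 -0.34), the glycolytic aldolase Aldoa (-0.20), chromogranin B (Chgb, -0.26) and the tubulin Tubb5 (-0.26) were the other 4 of the 5 largest falls.

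Over all tested genes 16.3% rose and 17.4% fell, so 2 or 3 called members each way in a list of 12 to 20 genes are near that background. Unless said otherwise, members named from the lists below are called ones with the smallest adjusted p of their list. Their small p-values follow from that choice. Secretory genes moved both ways. Of 20 tested granin and granule genes, 5 rose and 8 fell, with a median of 0.00. Sytl2, a granule-tethering partner of Rab27a, rose from 189.7, 195 and 196 to 452, 423 and 429 (log2 1.16, SE 0.045), and the GTPase Rab27a itself from 956, 909 and 954 to 1618, 1629 and 1578 (log2 0.77, SE 0.043). Sytl4, another Rab27 effector of the same family, fell from 1423, 1342 and 1392 to 805, 814 and 797 (log2 -0.78, SE 0.035). These 3 genes did not overlap between times, and their limma adjusted p-values were 5.70e-14, 1.55e-11 and 5.63e-13. Of 13 tested processing enzymes and helpers, 5 rose and 3 fell, including the amidating enzyme Pam (log2 0.27; limma, adjusted p = 1.55e-06), the carboxypeptidase Cpd (-0.19) and the convertase Pcsk6 (-0.27).

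Signalling through cyclic AMP drives Pomc transcription and hormone release in corticotropes. Of 17 tested genes of this pathway, 11 rose and 5 fell, with a median of 0.18, and 7 rises and 3 falls were called whichever library was left out. The phosphodiesterase Pde4d, which breaks down cyclic AMP, rose from 102, 98.9 and 101 to 155, 165 and 164 (log2 0.67, SE 0.057), and Pde4b by 0.32. The responsive factor Crem rose by 0.57 and the regulatory subunit Prkar2b of protein kinase A by 0.29, and limma adjusted p-values of these 4 lay between 1.15e-08 and 4.52e-06. The falls named here, after their values were seen, were those of the cyclase Adcy5 (log2 -0.34) and the factor Creb1 (-0.30). Of 12 glucocorticoid receptor targets, 5 rose and 3 fell. Nfkbia, which holds the factor NF-kappa-B in the cytoplasm, rose from 275, 251 and 264 to 439, 431 and 432 (log2 0.72, SE 0.055), and Errfi1, a brake on the EGF receptor, by 0.42, while the kinase Sgk1 read -0.45 and Ddit4 -0.30 (limma, adjusted p from 2.77e-09 to 5.81e-05).

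Ddc, Tph1 and Gch1, enzymes of monoamine synthesis, fell. Ddc, the decarboxylase shared by dopamine and serotonin synthesis, had 3932, 3921 and 3618 scaled reads at 0 h and 2200.4, 2124 and 1997 at 96 h, with no overlap (log2 -0.86, SE 0.042; limma, adjusted p = 1.85e-12). Tph1 went from 38.2, 41.4 and 40.8 to 13.3, 12.2 and 11.3 and Gch1, which makes the hydroxylases' cofactor, from 576, 561 and 575 to 414, 393 and 396 (log2 -0.51; limma, adjusted p = 1.87e-07). Tyrosine hydroxylase (Th) was called higher at few reads (log2 0.48; limma, adjusted p = 0.0241), a call lost without 0 h replicate 2 or 3 or 96 h replicate 1 or 2 (0.41 to 0.48, adjusted p = 0.0517 to 0.103). Of 9 tested genes of this list, then, 1 rose and 3 fell, with a median of -0.13. Of 12 endocannabinoid and neutral lipid enzymes, 3 fell and 2 rose: besides Mgll, the anandamide hydrolase Faah (-0.17) and Dgat1 (-0.27) fell, and Daglb, which makes 2-arachidonoylglycerol, rose by 0.18 (limma, adjusted p = 0.00674), the only rise of the list without 0 h replicate 1, 0 h replicate 3 or 96 h replicate 2.

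Sterol genes were lower than at 0 h and higher than at 24 h. Of 24 tested genes of sterol synthesis and uptake, 13 fell and 2 rose at 96 h, with a median of -0.17, beside a median of -0.34 at 24 h. From 24 to 96 h, 14 of the 24 were called higher and none lower. Without 96 h replicate 3, 8 genes were called lower. Hmgcs1, an early enzyme of the pathway, read 4018, 4479.5 and 4346 scaled reads at 0 h and 3009.5, 2829 and 2678 at 96 h, with no overlap (log2 -0.59, SE 0.082; limma, adjusted p = 1.02e-05). Fdft1, which makes squalene, read -0.36 (limma, adjusted p = 7.13e-05). The rises were those of the sterol carrier Stard4, from 803, 881 and 897 to 1123, 1127 and 1077 (log2 0.37), and Dhcr7, the last reductase of cholesterol synthesis, by 0.31 (limma, adjusted p = 1.46e-06 and 2.25e-05). Of 19 genes of endoplasmic reticulum chaperones and the unfolded protein response, 6 fell and 3 rose. This list took a like course: 14 were called lower at 24 h than at 0 h, and from 24 to 96 h 11 were called higher and none lower. Of 15 fatty acid synthesis genes, 8 were called lower and 1 higher at 24 h. From 24 to 96 h, 8 of them were called higher and 1 lower. In the list of chaperones and the unfolded protein response, Creld2 (-0.31), Sdf2l1 (-0.24) and Edem1 (-0.20) fell at 96 h against 0 h. The main chaperone Hspa5, named after its value was seen, was not called (limma, adjusted p = 0.918). Of 21 amino acid stress genes, 6 fell and 2 rose, with the transporter Slc7a5 (-0.27) and asparagine synthetase (Asns, -0.24) among the falls and the tryptophan ligase Wars (0.23) higher. Limma adjusted p-values of the 6 called members named from the chaperone and amino acid stress lists ran from 1.45e-05 to 4.45e-04.

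Genes of the cell cycle moved by small steps. Of 24 DNA replication genes, 10 rose and 2 fell, with a median of 0.07, and 6 of the rises but neither fall were called whichever library was left out (0 or 1 falls in each such fit). The initiation factor Mcm10 read 333, 357 and 334 scaled reads at 0 h and 410.3, 411 and 420.1 at 96 h (log2 0.28, SE 0.042), and Rrm2, a subunit of ribonucleotide reductase, rose by 0.21 (limma, adjusted p = 3.11e-05 and 6.74e-04). Of 24 mitosis genes, 10 fell and none rose, with a median of -0.09, and 5 were called without 96 h replicate 3. The motor Kif23 fell from 698, 687 and 707 to 570.5, 577 and 569.7 (log2 -0.28, SE 0.034), cyclin B2 (Ccnb2) by 0.27 and the phosphatase Cdc25c by 0.22 (limma, adjusted p from 1.62e-06 to 0.00260), while Mki67, the proliferation marker, was not called (-0.04; named after its value was seen). Cyclin D1 (Ccnd1), which drives entry into the cycle, fell from 45.5, 46.3 and 46.5 to 26.2, 24.3 and 29.7 (log2 -0.77; limma, adjusted p = 4.39e-06). Of 9 tested cyclin-dependent kinase inhibitors and D cyclins, 1 rose and 3 fell, with the inhibitor Cdkn1b at 0.16 and Cdkn2c at -0.26.

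**Figure D3:**
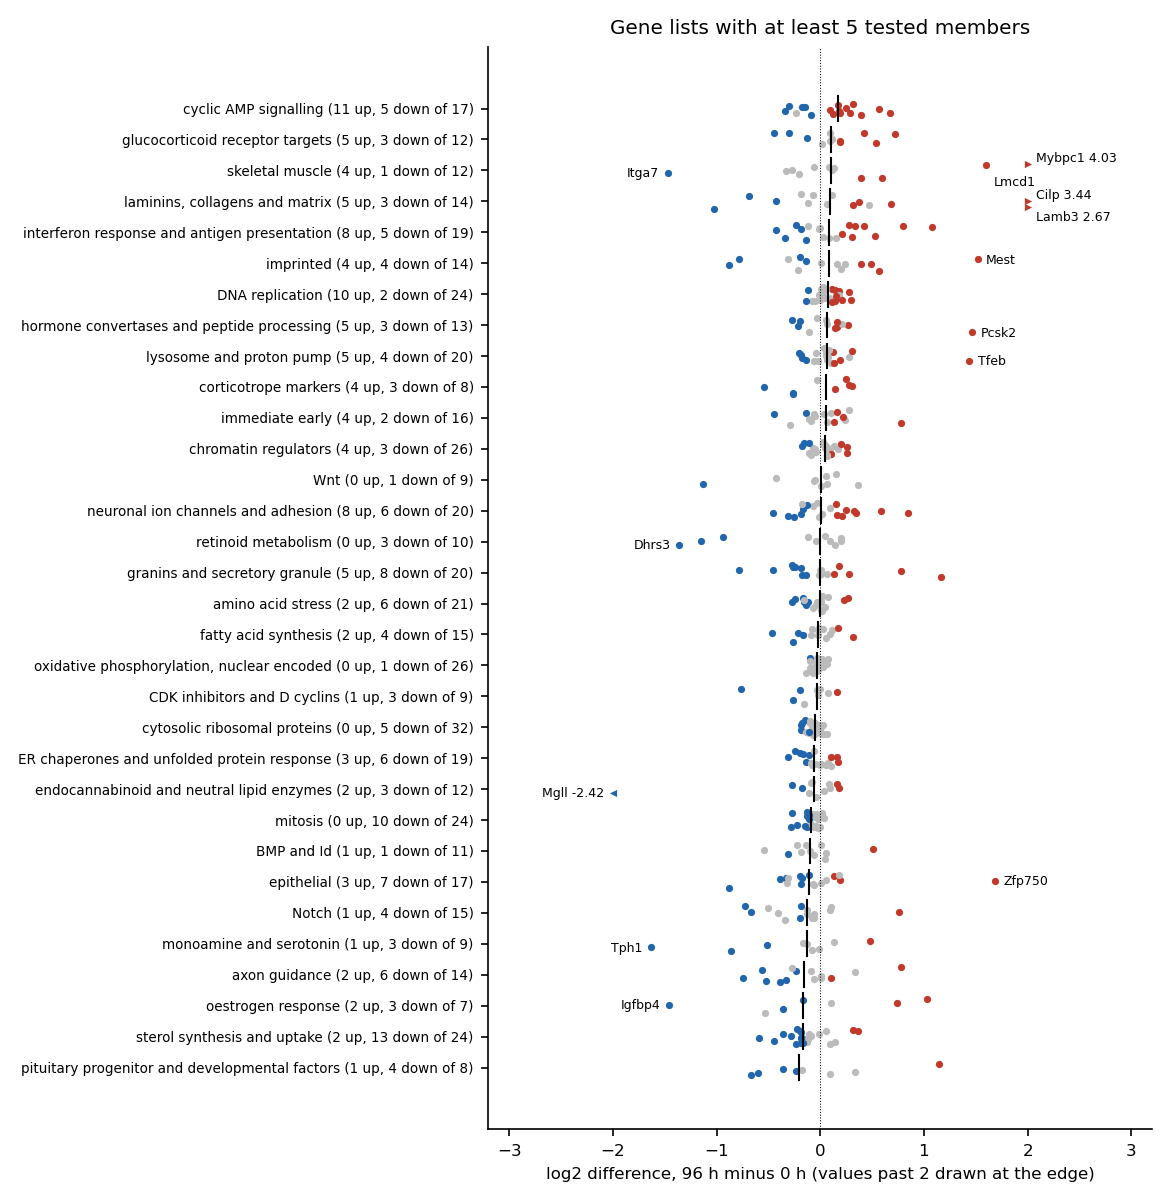
Each point is a tested member of a gene list with at least 5 tested members, placed by its log2 difference of 96 h from 0 h, in red where called higher, blue where called lower and grey where not called. Black bars are medians, the dotted line marks 0, and triangles mark values past 2 (Mybpc1 4.03, Cilp 3.44, Lamb3 2.67 and Mgll -2.42). The medians of the lists drawn lie between -0.20 and 0.18, and most of them hold called members on both sides.

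Oestrogen response genes were examined because the inducer binds oestrogen receptors. Of 7 tested, 2 rose and 3 fell, with a median of -0.16. Greb1, an early oestrogen-induced gene of breast cells, had 12.9, 13.8 and 15.6 scaled reads at 0 h and 28.4, 31.5 and 29.1 at 96 h (log2 1.03, SE 0.15; limma, adjusted p = 1.34e-05), and the receptor kinase Ret, named after its value was seen, read 0.74. Without 96 h replicate 3 the call of Ret was lost (0.60, adjusted p = 0.0548). Igfbp4, which binds insulin-like growth factors, fell from 779, 725 and 747 to 263, 287 and 266 (log2 -1.46, SE 0.042; limma, adjusted p = 5.50e-16), with Rara at -0.36 and Xbp1 at -0.16 as the other falls. Pgr, Tff1, Myb and Gal did not reach the level needed for a test.

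Muscle and matrix genes moved both ways. Pax7 is best known from muscle stem cells, yet the myogenic factors Myod1, Myf5 and Myf6 were listed at 0 in all 6 libraries. Of 12 tested muscle genes, 4 rose and 1 fell, with a median of 0.10. The rises were those of Mybpc1, Lmcd1, the deaminase family gene Apobec2 (log2 0.39; limma, adjusted p = 7.94e-04) and the actin cross-linker Actn2 (0.60). Actn2 was named after its value was seen, and its call was lost without 0 h replicate 1 (0.47, adjusted p = 0.103) or 96 h replicate 1 (0.38, 0.155). The fall was that of the laminin receptor Itga7, from 32.8, 31.4 and 35.8 to 10.0, 13.4 and 10.9 (log2 -1.47). Of 14 tested laminin, collagen and matrix genes, 5 rose and 3 fell. Besides Lamb3 and Cilp, Col18a1, a basement membrane collagen, rose by 0.37, while the laminin chain Lama5 fell from 543, 577 and 597 to 380.1, 348 and 338 (log2 -0.69; limma, adjusted p = 2.10e-08). Epithelial genes were called higher in 3 and lower in 7 of 17 cases, with the factor Grhl2 falling from 33.4, 37.2 and 33.1 to 17.4, 18.7 and 18.7 (log2 -0.88), the splicing regulator Esrp2 by 0.39 and keratin 7 (Krt7) by 0.33, and Zfp750 rising (limma, adjusted p from 3.82e-12 to 4.44e-04).

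The lysosomal regulator Tfeb, which turns on lysosome genes, rose from 54.1, 45.7 and 51.3 to 140.4, 142 and 131 (log2 1.44, SE 0.067; limma, adjusted p = 9.45e-13). The lysosome and proton pump list as a whole had 5 rises and 4 falls among 20 tested genes and a median of 0.06. The autophagy receptor Sqstm1 rose by 0.31, and the membrane protein Lamp1 fell by 0.18 (limma, adjusted p = 1.73e-06 and 3.56e-04). Of 15 tested Notch genes, 1 rose and 4 fell: the ligand Dll1 rose from 14.8, 18.1 and 13.4 to 23.7, 27.1 and 29.1 (log2 0.76), while Lfng, which modifies Notch with sugar, fell from 770.3, 746 and 720.0 to 455, 443 and 453 (log2 -0.72), and Jag2 read -0.19 and Hes1 -0.67 (limma, adjusted p from 9.52e-12 to 5.89e-04). In the Wnt list, the receptor Fzd7 fell from 98.2, 105 and 99.6 to 43.5, 48.1 and 45.1 (log2 -1.13; limma, adjusted p = 3.17e-10), and the other 8 of 9 tested genes were not called.

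Markers of other cell types stayed low. The summed markers of immune cells came to 9.01 to 11.7 scaled reads at 0 h and 7.50 to 11.004 at 96 h, those of fibroblasts to 30.9 to 38.8 scaled reads at 0 h and 22.5 to 30.5 at 96 h and those of endothelium to 5.96 to 6.45 scaled reads at 0 h and 2.90 to 6.11 at 96 h. Cd3e, Col1a2, Dcn and Thy1 were listed at 0 in all 6 libraries. Of these 3 lists' 8 tested genes only Col1a1 was called (log2 -0.43; limma, adjusted p = 0.0140), a call lost without 0 h replicate 2 (-0.33, adjusted p = 0.0872) or 96 h replicate 3 (-0.36, 0.0714), while without 96 h replicate 2 a second fibroblast gene was called. Glial markers summed to 8.81 to 10.8 scaled reads at 0 h and 22.0 to 24.997 at 96 h, of which Aldh1l1 went from 6.98, 6.78 and 4.98 to 19.2, 21.5 and 22.8, while S100b stayed under 2.3 scaled reads and Aqp4 under 1 in each library.

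The 96 h libraries were next compared with those at 24 h, to see which differences lay between these times. Against 24 h, 1929 of 15188 genes differed (12.7%; limma, adjusted p under 0.05), 936 higher at 96 h (6.16%) and 993 lower (6.54%), and 1268 differed without 96 h replicate 2. Against 12 h, 3617 differed (23.8%), and against 0 h 986 had differed at 12 h (6.49%) and 2056 at 24 h (13.5%). These comparisons share libraries with that of 96 h against 0 h and are given side by side. Mybpc1 had 97.8, 97.1 and 97.2 scaled reads at 24 h, and the step from 24 to 96 h (log2 2.03; limma, adjusted p = 2.18e-12) stood beside one of 2.00 from 0 to 24 h. Rgs4, with 622, 676 and 671 at 24 h, likewise rose by 0.77 to 24 h and by 0.80 after it (adjusted p = 8.41e-10). Others had reached their level early: Tfeb had 128, 132 and 139.8 at 12 h, Rab27a 1622, 1572 and 1503 and the sodium channel Scn3a 749.8, 793 and 795, and from 24 to 96 h they differed by 0.05, 0.03 and -0.05 without a call (limma, adjusted p = 0.672, 0.724 and 0.539). Cacna1h had 62.0, 76.3 and 69.1 at 12 h and 48.8, 55.2 and 50.4 at 24 h. It fell further after 24 h (96 h minus 24 h, log2 -1.45, limma adjusted p = 1.05e-08). Tph1, in contrast, was already at 13.7, 15.3 and 12.5 at 12 h and read 0.26 from 24 to 96 h, with no call (limma, adjusted p = 0.199).

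A set of 937 genes was called at 96 h against both 0 and 24 h in the same direction and not at 12 or 24 h against 0 h, 452 higher and 485 lower, as the rule that picked them fixes. The highest were Atoh8, a basic helix-loop-helix gene, with 7.10, 7.60 and 5.79 scaled reads at 0 h, 8.94, 7.10 and 7.96 at 24 h and 18.1, 17.0 and 18.5 at 96 h (log2 1.28 from 0 h), the death ligand Tnfsf10 (1.17), the Wnt enhancer Rspo4 (1.16), Sox9 (1.15), the laminin chain Lama4 (1.06) and Greb1 (1.03). Sox9 had 17.1, 18.2 and 18.0 at 24 h, within the range of 0 h, and Lama4 66.5, 57.5 and 58.5. The lowest were Hspa12a, an HSP70 family gene, with 305, 297 and 382 at 0 h and 153, 159 and 128 at 96 h (log2 -1.15), the kallikrein Klk1b26 (-1.01), Cecr6 (-1.01), the kallikrein Egfbp2 (-0.99), the protease Htra4 (-0.87) and Nme5 (-0.86). Klk1b26 and Egfbp2 are near-identical copies with almost the same values in every library, so their reads may be split between them and each is uncertain.

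A few genes turned round between 12 and 96 h. Of 4379 called genes with at least 10 scaled reads, no overlap at 96 h and a symbol that is no clone name, 12 were called lower at 12 h and higher at 96 h, and 7 the reverse. Pcsk1 had 9468, 9539.8 and 9207 scaled reads at 0 h, 8600.3, 8446 and 8498 at 12 h, 8136, 8219 and 8164 at 24 h and 10490.0, 10308 and 10281 at 96 h. It lay below its starting level at 12 and 24 h and above it at 96 h (96 h minus 24 h, log2 0.34). The integrin Itgb5 went from 227, 219.5 and 216 at 0 h to 193, 203 and 189 at 12 h and 306, 317 and 317 at 96 h, and Creb3l2, a factor of secretory cells, from 335, 390.5 and 358 to 293, 292 and 301 and 505, 509.9 and 481. Angiotensinogen (Agt), Dusp14 and Capn9 took the same course, with 12 h minus 0 h at -0.24, -0.26 and -0.20 and 96 h minus 0 h at 0.31, 0.35 and 0.21. The other way went the SRY-box factor Sox4, from 439, 439 and 398 to 566, 526 and 532 and then 385, 356 and 355, the neuronal tubulin Tubb3 (12 h 0.13, 96 h -0.28), Prr15l (0.18 and -0.34), cyclin G2 (Ccng2, 0.20 and -0.21) and the integrin Itga6 (0.17 and -0.15). These genes were picked for opposite calls at 12 and 96 h against the same 0 h libraries, so a difference between 12 and 96 h was fixed by the rule, and no p-value is given for it.

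**Figure D4:**
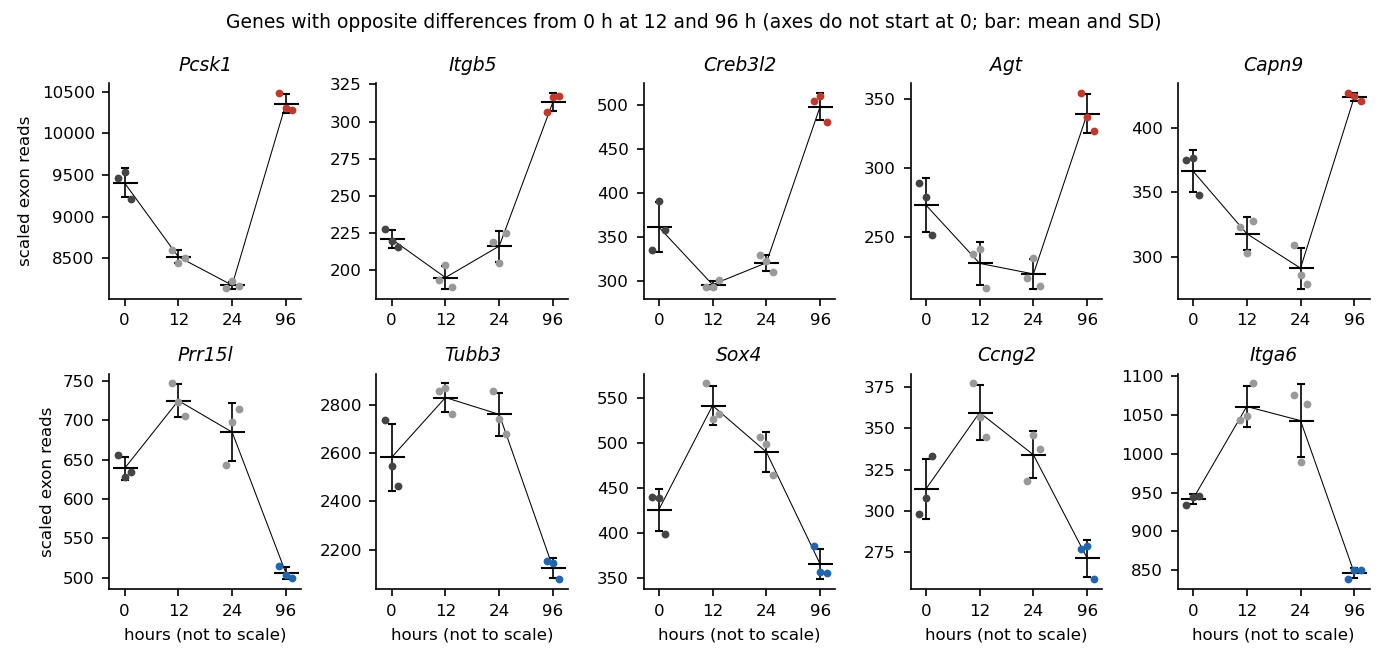
Scaled exon reads (vertical axes, not starting at 0) of 10 genes at 0, 12, 24 and 96 h (horizontal axes, not to scale), with a point for each of 3 libraries and bars for the mean and SD. In the upper row the 12 h libraries lie below the 0 h mean and the 96 h libraries above every 0 h library, and in the lower row the order is turned round.

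Cells with constitutive Pax7 gave a second, independent set of libraries, measured as FPKM over gene bodies and normalised separately, so only the direction and fold of a gene can be set beside those at 96 h. In them 4911 of 13393 genes differed from Neo cells (36.7%; limma, adjusted p under 0.05), and 4830 of the 12992 genes tested in both tables (37.2%), 18.7% higher and 18.5% lower. Of 4623 genes called at 96 h and tested in both, 2328 (50.4%) were called in Pax7 against Neo cells, 2045 in the same direction and 283 in the opposite one. The 2045 are 44.2% of the genes called at 96 h and 42.3% of the 4830 called in Pax7 cells. Among genes not called at 96 h, 29.9% were called in Pax7 cells in either direction. Those called in the direction of their own 96 h difference were 20.2%. With 1 of the 4 Neo and Pax7 libraries left out, fewer genes were called in both with the same direction, 1286 without Neo replicate 1, 1223 without Neo replicate 2, 983 without Pax7 replicate 1 and 1007 without Pax7 replicate 2.

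The genes with at least 2-fold differences at 96 h were looked up in the same way. Of the 102 higher, 34 fell below the FPKM filter and 33 passed it only through the Pax7 libraries, where a gene had to be high. Of the 35 that also reached 0.1 FPKM in both Neo libraries, 33 were called higher in Pax7 cells. Of the 139 lower, 68 fell below the filter and 16 passed only through the Neo libraries, and of the 55 that reached 0.1 FPKM in both Pax7 libraries 42 were called lower. With no filter, 75 of 101 higher genes were called higher and 1 lower, and 65 of 135 lower genes were called lower and 4 higher.

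At least 1.5-fold in both experiments were 249 genes, 118 higher in both, 126 lower in both and 5 lower at 96 h but higher in Pax7 cells, with no gene the other way round. Of the 244 in the same direction, 69 were under 0.1 FPKM in at least 1 of the 4 libraries, so that they passed the filter through the other libraries only and the 244 is given as a count, not as support. Among the 179 genes at 0.1 FPKM or more in all 4, 69 were higher in both, 106 lower in both and 4 opposite. The 244 became 93 with the stricter filter and 111 with an FPKM pseudocount of 0.5. The genes named next were ranked by the product of their log2 differences, and Mybpc1, Gfra4, Lamb3, Zfp92 and Oacyl were under 0.1 FPKM in both Neo libraries. Mybpc1 had 0.0403 and 0.0417 FPKM in the Neo and 0.909 and 0.925 in the Pax7 libraries (log2 2.85), beside its rise of 4.03 at 96 h. Lamb3 read 3.00 and 2.67, Zfp92 4.09 and 1.56, Oacyl 3.12 and 5.57, in that order for Pax7 cells and for 96 h. Gfra4, a co-receptor for the GDNF family ligand persephin, had 0.0101 and 0.0104 FPKM in Neo and 1.78 and 1.75 in Pax7 cells (log2 4.08) and went from 0.353, 0 and 0.572 to 6.80, 7.62 and 4.04 scaled reads at 96 h (2.44). The unnamed transcript E330020D12Rik was the sixth (log2 2.60 and 2.68). Lower in both were Cd2 (log2 -1.84 and -1.67), Fxyd3 (-1.34 and -2.27), the protease inhibitor family gene Wfdc12 (-2.43 and -0.98), S100a14 (-1.65 and -1.42), the sulfatase Arsg (-1.50 and -1.54) and Lgi4 (-1.06 and -2.16), with limma adjusted p-values of 0.00164 to 0.00817 in Pax7 cells.

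The largest contrast was Iapp, the peptide hormone amylin (mm10 chromosome 6, 142298425 to 142303819). It had 0.383 and 0.438 FPKM in Neo and 4.74 and 4.83 in Pax7 libraries (log2 3.26; limma, adjusted p = 7.40e-04). At 96 h it stood below its start, with 45.5, 52.2 and 47.5 scaled reads at 0 h and 18.7, 14.5 and 13.0 at 96 h and no overlap (log2 -1.60, SE 0.12; limma, adjusted p = 2.54e-09). Calca, which encodes calcitonin and the related peptide CGRP of the same peptide family, fell from 173, 171 and 149 to 87.2, 87.1 and 88.2 (log2 -0.90) and was higher in Pax7 cells (0.60). The lectin-like receptor Clec2d (-0.84 at 96 h, 1.57 in Pax7 cells), the kinase A anchor Sphkap (-0.97 and 0.67) and the neurotrophin receptor Ntrk3 (-0.71 and 0.59) were the other 3. The chromogranins also differed in direction, at under 1.5-fold at 96 h, Chga reading 0.36 and Chgb 0.90 in Pax7 cells against -0.45 and -0.26 at 96 h. In the list of sterol genes, 15 of 23 tested were called higher and none lower in Pax7 cells, where 13 of 24 were called lower at 96 h. The difference between the experiments, which have different cells, units and normalisation, was not tested.

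**Figure D5:**
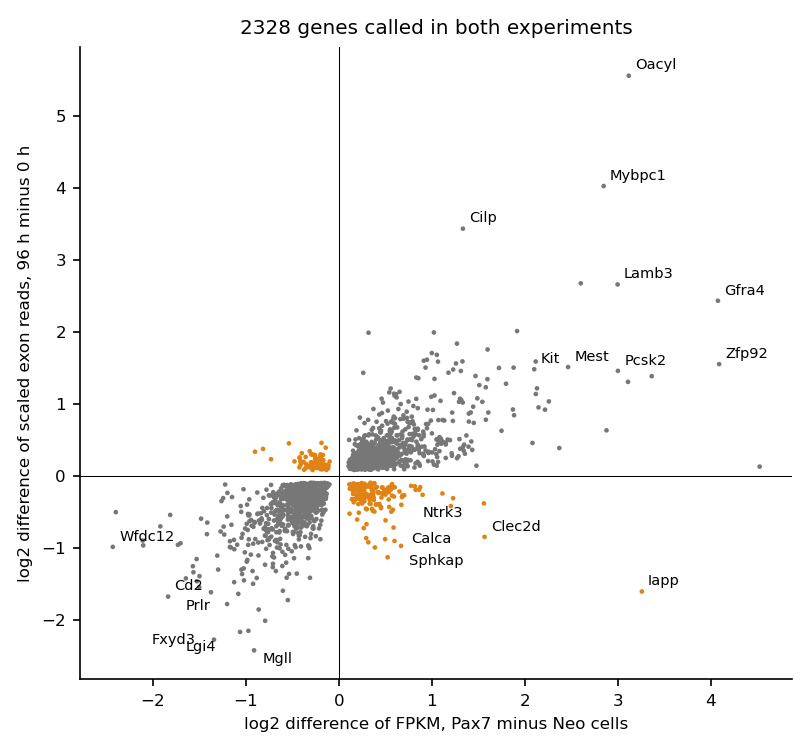
Genes called in both experiments (2328), placed by the log2 difference of FPKM between Pax7 and Neo cells (horizontal) and the log2 difference of scaled exon reads between 96 h and 0 h (vertical). Grey points have the same direction in both (2045) and orange points the opposite direction (283). Oacyl, Mybpc1 and Lamb3 lie far up on the right, and Iapp stands alone at the lower right.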

How the data were processed

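Libraries were 50-base RNA-seq of AtT-20 cells, mapped to mm10, and the submitters' processing notes name TopHat, HOMER and edgeR, with versions not given in the sources used here. The ER-Pax7 table holds reads on exons, which the authors had scaled so that each of 12 libraries sums to about the same total, and this scaled signal is what the authors deposited, per the file headers, and not a raw count. Whole reads were recovered from the steps of low values, up to 200 reads, 100% of which came out whole (tolerance 0.1 reads), including 96 h replicate 1, whose step per read of 0.10006 was read in the same way but could not be checked separately. The Neo and Pax7 table holds FPKM that the authors deposited, over gene bodies with introns, per the file headers. The authors' deposited table also gives a log2 fold change, a p-value and an FDR for 96 h against 0 h.

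Genes with at least 1 scaled read in 3 of 12 libraries were tested with limma 3.58.1 (trend, R 4.3.3) on log2(value / TMM factor + 1) in 1 model of all 12 libraries, with Benjamini-Hochberg adjustment. TMM factors (edgeR 4.0.16) were 0.993 to 1.01. FPKM were tested at a minimum of 0.1 in 2 of 4 libraries with a pseudocount of 0.1. In all, 6 comparisons were made. An exact permutation test of 3 against 3 cannot go below p = 0.1 (two-sided), so none was used. The model was tested on simulated data. Alternatives were library totals, DESeq2 size factors, pseudocounts of 0.25 and 5 (FPKM 0.025 and 0.5), no filter, a stricter filter (10 scaled reads, 1 FPKM), only the libraries compared, the replicate number as a block, edgeR and DESeq2 1.42.0 on recovered reads, and each library left out.

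Genes named are Pax7, Esr1 and the melanotrope and corticotrope markers; the 15 highest and 15 lowest folds and the 5 largest rises and falls in reads among called genes without overlap, with a mean of at least 10 scaled reads and no clone name; up to 4 called members of each other list with the smallest adjusted p; 5 genes each way that turned round after 12 h and 6 each way that changed after 24 h; and the 6 strongest genes each way of both experiments. The genes compared and the 38 lists were chosen with earlier results of these data known. Some genes that this rule names are not reported here. Promoter windows were searched on both strands.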

Additional observations from a re-analysis of the deposited data

Results flagged for a closer look

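The 5 genes lower at 96 h and higher in constitutive Pax7 cells were picked for opposite calls of at least 1.5-fold. Their opposite directions were therefore fixed by that rule. The log2 differences of 96 h from 0 h were -1.60 for Iapp, -0.84 for Clec2d, -0.97 for Sphkap, -0.90 for Calca and -0.71 for Ntrk3, beside 3.26, 1.57, 0.67, 0.60 and 0.59 in Pax7 against Neo cells. This difference between the experiments was not tested.

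A further 10 genes differed from 0 h in one direction at 12 h and in the other at 96 h, as the rule that picked them requires, so no p-value is given for the difference between those times. From 12 to 96 h the log2 difference was 0.68 for Itgb5, 0.75 for Creb3l2, 0.61 for Dusp14, 0.55 for Agt and 0.42 for Capn9. Over the same span it was -0.52 for Prr15l, -0.41 for Tubb3, -0.57 for Sox4, -0.41 for Ccng2 and -0.33 for Itga6.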

How the results depend on the processing

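Between 4738 genes (no filter) and 5755 (replicate number as a block) were called at 96 h against 0 h under the alternatives that kept all 6 libraries, and leaving out 1 library gave 4134 to 4585. The replicate numbers were not taken to pair the samples, although this is not settled: their deviations correlated at 0.232, 0.0785 and 0.193 over 12506 genes for numbers 1 to 3, the second under the 0.1 asked of every pair, and 5113 of the 5755 genes called with the replicate block were called without it. At least 2-fold higher genes numbered 51 with a pseudocount of 5 and 67 with the stricter filter, against 102. At least 2-fold lower genes numbered 212 with DESeq2, 219 with edgeR, 209 with a pseudocount of 0.25, 56 with a pseudocount of 5 and 92 with the stricter filter, against 139. A larger pseudocount shrinks folds of low genes by construction, and the stricter filter tests fewer genes. Against 24 h, leaving out 1 library gave 1268 to 1730 genes. In Pax7 against Neo cells it gave 2005 to 2918, where the lone library of a group was assumed to vary like the others, the replicate block 3412, and library totals in place of TMM factors 3841, 67.7% of them higher against 50.4%. Of 189 named genes, 186 were called, which was nearly fixed by the rule, since most were named from called genes only. Of the 186, 176 were called in every fit that left out 1 library, against 3309 of all 5124 called genes, and none reversed. The replicate block added calls of Megf11 (adjusted p = 0.0274, limma) and Esr1 (0.0192), so that all 4 tested melanotrope markers were called higher. At least 1.5-fold in both experiments and in the same direction were 93 genes with the stricter filter and 111 with an FPKM pseudocount of 0.5, against 244, an alternative chosen after seeing the data, like the comparison of 96 h with 12 h and the motif search.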

Other observations

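Shares over all tested genes were 16.3% higher and 17.4% lower at 96 h, beside which the list counts below stand. Genes of antigen presentation and the interferon response moved both ways at 96 h, with 8 rises and 5 falls among 19 tested and a median of 0.09. Tapbp, which loads peptides on class I molecules, rose from 409.9, 394 and 395 to 586, 554 and 593 scaled reads (log2 0.53), the factor Irf1 by 0.42, the antiviral GTPase Mx1 by 0.79 and the peptide transporter Tap2 by 0.21 (limma, adjusted p from 1.15e-08 to 4.53e-04). The class II chaperone Cd74, named after its value was seen, rose from 2.84, 1.64 and 1.96 to 4.20, 7.71 and 5.22. Without 0 h replicate 1, 96 h replicate 2 or 96 h replicate 3, 3 genes of the list were called lower in place of 5. Retinoid genes fell in 3 of 10 cases and rose in none, although the median was 0.00. Dhrs3, which reduces retinaldehyde, fell from 44.4, 36.5 and 41.0 to 13.8, 16.0 and 15.8 (log2 -1.36), and the retinol uptake receptor Stra6 from 1.89, 2.22 and 1.64 to 0.600, 0.847 and 0.181 (-0.94; limma, adjusted p = 4.55e-09 and 0.00469). Of 14 tested axon guidance genes, 6 fell and 2 rose, or 1 rose without 0 h replicate 1, 0 h replicate 3, 96 h replicate 1 or 96 h replicate 2. The neuropilins Nrp1, from 656, 688 and 666 to 459.6, 441 and 457, and Nrp2 (log2 -0.52), the ephrin receptor Epha5 (-0.74) and the ligand Efna5 (-0.33) were among the falls (limma, adjusted p from 1.19e-10 to 1.26e-04).

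The same shares, 16.3% and 17.4%, stand beside the lists here. The chromatin and ribosomal protein lists did not exceed them in either direction. Neuronal channels and adhesion genes had 8 rises and 6 falls among 20 tested, with 3 falls without 96 h replicate 1. The sodium channels Scn3a (log2 0.85) and Scn2a1 (0.33) and the calcium-gated potassium channel Kcnma1 (0.58) rose, and the potassium channel Kcnj6 fell (-0.46). Of 14 tested imprinted genes, 4 rose and 4 fell, with 2 falls without 0 h replicate 3 or 96 h replicate 2. Besides Mest, Impact rose by 0.57 and the receptor Igf2r by 0.39, while Rian, a long noncoding RNA, went from 57.4, 56.3 and 55.1 to 32.0, 27.2 and 31.5 (log2 -0.88; limma, adjusted p = 3.07e-07), and Meg3 of the same gene cluster, named after its value was seen, read -0.78. Of 15 fatty acid synthesis genes, 4 fell and 2 rose, with the acyl-CoA ligase Acsl3 at -0.46, the desaturases Fads1 and Fads2 at -0.21 and -0.27 and Thrsp at 0.32, and 1 rose without 0 h replicate 1, 0 h replicate 2, 96 h replicate 2 or 96 h replicate 3. Of 16 immediate early genes, 4 rose and 2 fell, with Ier3 at 0.78 and the nuclear receptor Nr4a2 at -0.44, with 2 rises without 96 h replicate 1 and 1 fall without 0 h replicate 1 or 96 h replicate 1. Of 11 BMP and Id genes, Smad9, a transducer of BMP signals, rose (0.51) and the inhibitor Id1 fell (-0.31), with 3 falls without 0 h replicate 3 and 2 without 96 h replicate 2. Of 26 chromatin regulators, 4 rose and 3 fell, with the methyltransferase Ezh1 at 0.26 and the deacetylase Hdac2 at -0.15, and 1 fell without any one of 5 libraries (all but 0 h replicate 1). Of 32 cytosolic ribosomal protein genes, 5 fell and none rose, with 2 falls without 0 h replicate 1 and 3 without 96 h replicate 3, and Rpl15 read -0.19 (limma, adjusted p = 2.22e-04). Of 26 nuclear genes of oxidative phosphorylation, 1 fell and none rose, and leaving out 1 library gave between 0 and 3 falls and 0 or 1 rises.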
